A study of Capra hircus with 13 samples.

Results

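The embryo of the goat passes from the 4-cell to the 8-cell stage while its own genome begins to be transcribed, and the 2 stages were compared here in untreated embryos. The members are 6 of the 13 RNA-seq libraries of the series, namely 3 of 4-cell and 3 of 8-cell stage embryos, chosen by their labelled stage and treatment. The other libraries are of MII oocytes and of siRNA-injected 8-cell embryos, made to ask how maternal mRNA is cleared and what the m6A reader YTHDF2 does in it. All 6 libraries are of goat (Capra hircus) embryos labelled as untreated, and the labels describe in vitro fertilization, culture in BO-IVC medium with FBS under low oxygen, direct lysis and Smart-seq2, which amplifies polyadenylated RNA. A collection time of the sequenced embryos is stated without saying which stage it is for, and goat breed and the number of embryos per untreated library are not given in the sources used here. The authors took the untreated libraries from 2 earlier studies without stating the study of each, so stage and study of origin cannot be told apart if they differ. Nothing says that the replicates are separate fertilizations, and the p-values then measure only the spread between these samples. Of 21826 gene names listed once in both tables, 20331 were above 0 in at least 1 library, and 9570 with a mean of at least 1 FPKM (fragments scaled by exon length and by the fragments mapped in the library) were tested.

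A cleavage embryo starts with mRNA stored in the oocyte, and transcription from the zygotic genome takes over during zygotic genome activation (ZGA). Activation in eutherian mammals includes PRD-like homeobox factors such as LEUTX, ARGFX and DUXA and Kruppel-like factors such as KLF17, while stored mRNA is lost through deadenylation by the CCR4-NOT complex and decapping. m6A is a methyl mark on mRNA that is written by METTL3 and METTL14, removed by FTO and ALKBH5 and bound by YTH domain proteins.

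The libraries held 26853876 to 30345379 fragments, and a gene of 1 kb at 3 fragments, taken here as the floor, lies between 0.0989 and 0.112 FPKM. Across tested genes the log2 values of 8-cell replicate 1 correlated at 0.851 and 0.896 with the other 8-cell replicates, which correlated at 0.963 with each other, and the 4-cell replicates at 0.962 to 0.976. In 8-cell replicate 1 there were 544 genes more than 4-fold above both of its partners, against 0 to 30 in each of the other 5 libraries, so this library stood apart. Their median level was 17.1 FPKM there, 1.06 and 1.61 FPKM in the other 8-cell libraries and 1.19 to 2.92 FPKM in the 4-cell libraries. Only 1 of these 544 genes passed the adjusted test below. Oocyte genes were present in every library, with ZP2, a zona pellucida protein, at 650 to 1153 FPKM and GDF9, an oocyte growth factor, at 404 to 590 FPKM, although ZAR1 and NLRP5, maternal effect genes, reached only 3.90 and 8.70 FPKM. Of 14 listed markers of cumulus and granulosa cells 6 reached the filter and none passed the adjusted test, but 1 did without 8-cell replicate 1. All 6 had log2 fold changes above 0, with a median of 0.27, the whole list summed to 33.4 to 49.3 FPKM at the 4-cell and 52.9 to 72.8 FPKM at the 8-cell stage, and the part of cumulus cells in the results was not tested. HAS2, the hyaluronan synthase of the cumulus matrix, was at 17.7 to 29.4 FPKM and VCAN, a proteoglycan, at 9.45 to 16.3 FPKM, each in all 6 libraries. TNFAIP6, another gene of this matrix, had 6.14, 3.67 and 1.42 FPKM in the 4-cell libraries and 4.47, 19.5 and 19.8 FPKM in the 8-cell libraries (log2 fold change 1.62, SE 0.61, adjusted p = 0.18). The 8 others reached at most 1.16 FPKM, and the granulosa hormone AMH was at 0 in all 6 libraries. Of 9 sperm markers 8 stayed at or below 0.885 FPKM in every library, with SMCP at 0 throughout, and of 2 blood markers CD74 was at 0 throughout and PTPRC reached 1.02 FPKM.

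Between the stages 148 genes were higher and 195 lower at the 8-cell stage by limma with Benjamini-Hochberg adjustment over the 9570 tested genes, which is 1.55% and 2.04% of them. By the rule of the study, an unadjusted p under 0.05 with more than a 2-fold change, 491 genes were higher and 408 lower, or 5.13% and 4.26%. The split of higher to lower genes was 43.1% higher by the adjusted p and 54.6% by the 2-fold rule, and it depended on the scaling. It was 53.7% by the adjusted p with median-ratio scaling, and by the 2-fold rule 43.9% with quantile normalization and 44.5% with voom on recovered fragments. Over the 9570 genes the median log2 fold change, 0.09 as deposited, was -0.01 after quantile normalization. In lysates of whole embryos fewer cells of a type and less RNA per cell cannot be told apart, and each library was scaled to its own total, so every change below is a change in share.

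Adjusted calls also depended on single libraries. Without 8-cell replicate 1 there were 252 higher and 256 lower genes, which held 142 of the 145 rises still tested and 184 of the 195 falls, and the median over all genes was -0.03. Without 4-cell replicate 1 no rise and 1 fall, SCPEP1, passed the adjusted limma test, while 1479 genes had an unadjusted p under 0.05. Without 4-cell replicate 3 there were 7 rises and 5 falls, without 8-cell replicate 3 there were 16 and 12, without 4-cell replicate 2 there were 51 and 31, and without 8-cell replicate 2 there were 65 and 81. All 148 rises and 195 falls had stages that do not overlap, so leaving out a library could not turn their direction. Of all 9570 tested genes 2730 had stages that do not overlap, so this trait, given for many genes below, was common. Counts of gene lists below carry the same dependence, and by the adjusted p no list held a call without 4-cell replicate 1. By the 2-fold rule the counts ranged from 352 to 754 higher and from 383 to 530 lower genes.

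Among genes with a symbol and a mean of at least 10 FPKM, the furthest rise was of ZIM3, a KRAB zinc finger gene, with 0.741, 8.08 and 4.05 FPKM at the 4-cell stage and 40.8, 214 and 53.6 FPKM at the 8-cell stage (log2 fold change 4.19, SE 0.76, adjusted p = 0.035). ZNF596, another zinc finger gene, had 4.62, 24.8 and 6.47 FPKM at the 4-cell stage and 77.5, 155 and 54.0 FPKM at the 8-cell stage (log2 fold change 3.09, SE 0.61, adjusted p = 0.041). All 8-cell values of both genes lay above all 4-cell values, with 8-cell replicate 2 the highest. SUPT4H1, a subunit of the DSIF elongation factor of RNA polymerase II, had 19.7, 123 and 45.8 FPKM at the 4-cell stage and 466, 325 and 479 FPKM at the 8-cell stage (log2 fold change 3.08, SE 0.58, adjusted p = 0.038), and its mean in MII oocytes was 0.275 FPKM. LEUTX, a PRD-like homeobox factor, had 41.3, 83.4 and 33.6 FPKM at the 4-cell stage and 253, 577 and 372 FPKM at the 8-cell stage (log2 fold change 2.93, SE 0.41, adjusted p = 0.017). The 4-cell libraries already held both transcripts, at 19.7 FPKM or more, and no library of one stage overlapped the other.

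ID2, an inhibitor of basic helix-loop-helix factors, rose from a high 4-cell level with little spread. It had 84.9, 104 and 115 FPKM at the 4-cell stage and 419, 346 and 373 FPKM at the 8-cell stage (log2 fold change 1.90, SE 0.18, adjusted p = 0.0074), against 1.94 FPKM in MII oocytes. WNT16, a secreted Wnt ligand, had 5.77, 3.70 and 3.85 FPKM at the 4-cell stage and 19.6, 51.8 and 52.0 FPKM at the 8-cell stage (log2 fold change 2.85, SE 0.40, adjusted p = 0.018). PMAIP1, the BH3-only protein NOXA, had 23.5, 34.7 and 24.5 FPKM at the 4-cell stage and 81.3, 155 and 135 FPKM at the 8-cell stage (log2 fold change 2.10, SE 0.29, adjusted p = 0.017). In each of these 3 genes the lowest 8-cell library was more than 2-fold above the highest 4-cell library. RRM2, the small subunit of ribonucleotide reductase, had 7.18, 8.46 and 4.23 FPKM at the 4-cell stage and 31.5, 21.7 and 21.1 FPKM at the 8-cell stage (log2 fold change 1.78, SE 0.30, adjusted p = 0.03). FAU, which encodes a ribosomal protein fused to a ubiquitin-like protein, had 28.7, 30.8 and 32.3 FPKM at the 4-cell stage and 125, 256 and 76.8 FPKM at the 8-cell stage (log2 fold change 2.11, SE 0.40, adjusted p = 0.039). Both were apart between stages, FAU with 8-cell replicate 2 far above the others. The remaining leading rises were ACRV1, an acrosomal vesicle protein (2.62), FAM177A1 (2.49), PNRC1, a nuclear receptor coactivator (2.22), TNFSF9, a cytokine of the TNF family (1.78), RSRP1, an arginine- and serine-rich protein (1.71), and TM4SF1, a membrane protein (1.67), as log2 fold changes, with adjusted p between 0.024 and 0.048.

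The furthest fall was of SCPEP1, a serine carboxypeptidase of the lysosome. It had 338, 379 and 835 FPKM at the 4-cell stage and 6.78, 8.01 and 7.32 FPKM at the 8-cell stage (log2 fold change -5.83, SE 0.34, adjusted p = 0.0024), and in MII oocytes its mean was 30.3 FPKM. The 4-cell libraries stood far above both the earlier and the later stage. CETN3, a centrin of the centrosome, had 1936, 1224 and 1537 FPKM at the 4-cell stage and 144, 256 and 210.4 FPKM at the 8-cell stage (log2 fold change -2.95, SE 0.27, adjusted p = 0.0074), with 1498 FPKM in MII oocytes. FZD6, a Wnt receptor, had 21.3, 21.3 and 24.2 FPKM at the 4-cell stage and 2.36, 1.01 and 3.19 FPKM at the 8-cell stage (log2 fold change -2.93, SE 0.31, adjusted p = 0.009). For all 3 genes no 8-cell library reached a 4-cell library.

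Several falls were tight among replicates. SMIM14, a small membrane protein, had 31.6, 34.3 and 36.2 FPKM at the 4-cell stage and 5.29, 5.50 and 5.46 FPKM at the 8-cell stage (log2 fold change -2.45, SE 0.19, adjusted p = 0.0048). GNPNAT1, an enzyme of UDP-N-acetylglucosamine synthesis, had 55.5, 62.6 and 67.3 FPKM at the 4-cell stage and 11.1, 11.5 and 10.3 FPKM at the 8-cell stage (log2 fold change -2.39, SE 0.18, adjusted p = 0.0048). The 8-cell replicates of both genes nearly coincided and lay far below every 4-cell library. SAR1B, a GTPase of COPII vesicles, fell by 2.55 on the log2 scale, TRMT10A, a tRNA methyltransferase, by 2.47, PLEKHA3, a phosphoinositide-binding protein, by 2.44, NSL1, a kinetochore protein, by 2.34, ACSL3, a long-chain acyl-CoA synthetase, by 2.28, MROH9 by 2.25, NDUFAF1, an assembly factor of complex I, by 2.10, RPA3, a subunit of the single-strand DNA binding protein RPA, by 2.01, and BCL10, an adaptor of NF-kappaB signalling, by 1.95. Adjusted p for these 9 genes ranged from 0.0074 to 0.04.

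**Figure D1:**
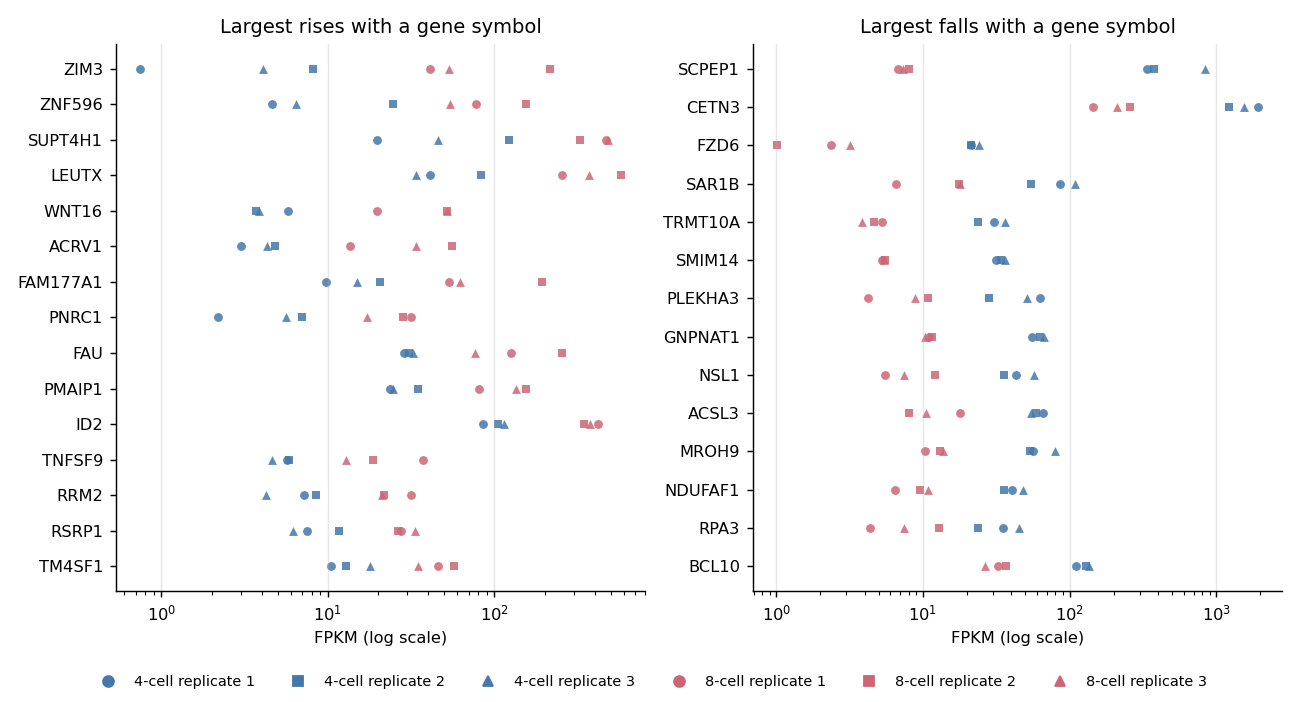
Values in FPKM (log axis) of the 15 furthest rises (left) and 14 of the furthest falls (right) among genes with a symbol, past an adjusted p of 0.05, at 10 FPKM or more on average and with stages that do not overlap; each point is 1 library, blue for the 4-cell and red for the 8-cell stage, its shape giving the replicate. Blue and red points do not overlap in any row since the choice of genes fixes this, and SCPEP1 falls from 338 to 835 FPKM to 6.78 to 8.01 FPKM.

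Of the genes listed as activated with ZGA, 22 were tested, and 3 rose and none fell by the adjusted p, against 1.55% and 2.04% of all tested genes, while by the 2-fold rule 11 of the 22 were higher, against 5.13% of all tested genes, and none lower. The list was compiled with earlier results of these data known, so the counts are a description. Its median log2 fold change was 1.50, and 1.19 without 8-cell replicate 1, against 0.09 and -0.03 over all tested genes. Some members, KLF17 among them, reached the filter only through their 8-cell values, so the filter itself favoured rises. With the filter at 5 FPKM 6 of 11 tested members were higher by the 2-fold rule, against 285 of 5725 genes. Without 8-cell replicate 1, 6 members rose and 1 fell by the adjusted p, against 252 and 256 of 9056 genes. The 3 genes past the adjusted test were LEUTX, ID2 and KLF4, a Kruppel-like factor, with 0.596, 2.14 and 0.551 FPKM at the 4-cell stage and 5.86, 8.05 and 4.76 FPKM at the 8-cell stage for KLF4 (log2 fold change 1.84, SE 0.37, adjusted p = 0.042).

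Other homeobox factors were scattered between 8-cell libraries. ARGFX had 22.4, 29.5 and 15.5 FPKM at the 4-cell stage and 52.8, 497 and 105 FPKM at the 8-cell stage (log2 fold change 2.64, SE 0.73, adjusted p = 0.091), and DUXA had 8.10, 13.7 and 5.04 FPKM at the 4-cell stage and 22.9, 297 and 46.1 FPKM at the 8-cell stage (log2 fold change 2.90, SE 0.85, adjusted p = 0.1). In both genes 8-cell replicate 2 was far above 8-cell replicates 1 and 3, although no 8-cell library overlapped the 4-cell ones, and their log2 fold changes were 3.34 and 3.67 without replicate 1 (adjusted p = 0.014 and 0.022) but 1.73 and 1.85 without replicate 2. OTX2, a bicoid-like homeobox factor, had 2.66, 5.89 and 7.49 FPKM at the 4-cell stage and 13.3, 31.4 and 9.63 FPKM at the 8-cell stage (log2 fold change 1.51, SE 0.48, adjusted p = 0.13). KLF17, a Kruppel-like factor of early primate embryos, had 0.0218, 0.723 and 0.109 FPKM at the 4-cell stage and 5.52, 8.89 and 1.96 FPKM at the 8-cell stage (log2 fold change 2.20, SE 0.48, adjusted p = 0.054). MYC, the growth regulator, had 0.742, 4.17 and 2.00 FPKM at the 4-cell stage and 8.26, 16.7 and 4.80 FPKM at the 8-cell stage (log2 fold change 1.71, SE 0.52, adjusted p = 0.11). ID1, a second inhibitor of basic helix-loop-helix factors, had 0.0352, 1.62 and 0.705 FPKM at the 4-cell stage and 6.15, 2.28 and 4.00 FPKM at the 8-cell stage (log2 fold change 1.56, SE 0.45, adjusted p = 0.097). These 4 genes passed the 2-fold rule but not the adjusted test, and their 8-cell values all lay above their 4-cell values. KLF17 and ID1 reached the filter only through their 8-cell values. With lower 8-cell values, NFYA, a subunit of the CCAAT-binding factor NF-Y, had 5.52, 6.38 and 5.10 FPKM at the 4-cell stage and 3.84, 1.57 and 2.19 FPKM at the 8-cell stage (log2 fold change -0.96, SE 0.31, adjusted p = 0.12).

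Pluripotency and lineage factors, 15 of which were tested, held 1 gene that rose and none that fell by the adjusted p, and 4 that were higher by the 2-fold rule, where all tested genes had 1.55% and 5.13% higher. Among the 6 members that reached 5 FPKM on average none rose and 1 fell. The 15 tested members' median log2 fold change was 0.79, against 0.09 over all tested genes, and 0.64 without 8-cell replicate 1. PDGFRA, a receptor that marks primitive endoderm at the blastocyst stage, had 0.104, 0.193 and 0.214 FPKM at the 4-cell stage and 3.16, 4.34 and 2.56 FPKM at the 8-cell stage (log2 fold change 1.88, SE 0.29, adjusted p = 0.025), and reached the filter only through its 8-cell values. NANOG had 0.0335, 2.26 and 0.739 FPKM at the 4-cell stage and 8.34, 17.3 and 2.76 FPKM at the 8-cell stage (log2 fold change 2.26, SE 0.64, adjusted p = 0.094). TFAP2C, a factor of trophectoderm and early embryos, had 0.0245, 2.66 and 0.76 FPKM at the 4-cell stage and 10.5, 23.2 and 4.70 FPKM at the 8-cell stage (log2 fold change 2.64, SE 0.63, adjusted p = 0.066). PRDM14, a regulator of naive pluripotency, had 0.83, 1.10 and 0.446 FPKM at the 4-cell stage and 2.83, 5.75 and 3.11 FPKM at the 8-cell stage (log2 fold change 1.42, SE 0.33, adjusted p = 0.065). The stages did not overlap for any of the 4 genes, as for 2730 of all 9570 tested genes, and the last 3 missed the adjusted test. PRDM14 too reached the filter through its 8-cell values alone. POU5F1, the pluripotency factor OCT4, had 3.34, 3.68 and 2.93 FPKM at the 4-cell stage and 34.9, 5.27 and 6.15 FPKM at the 8-cell stage (log2 fold change 1.44, SE 0.63, adjusted p = 0.24), where 8-cell replicate 1 decided the value, since the log2 fold change without it was 0.64. SOX2 and CDX2 stayed below 0.2 FPKM in every library. YAP1, the transcriptional effector of Hippo signalling, had lower 8-cell values, with 83.3, 65.9 and 66.5 FPKM at the 4-cell stage and 28.7, 39.6 and 40.2 FPKM at the 8-cell stage (log2 fold change -0.98, SE 0.21, adjusted p = 0.053).

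**Figure D2:**
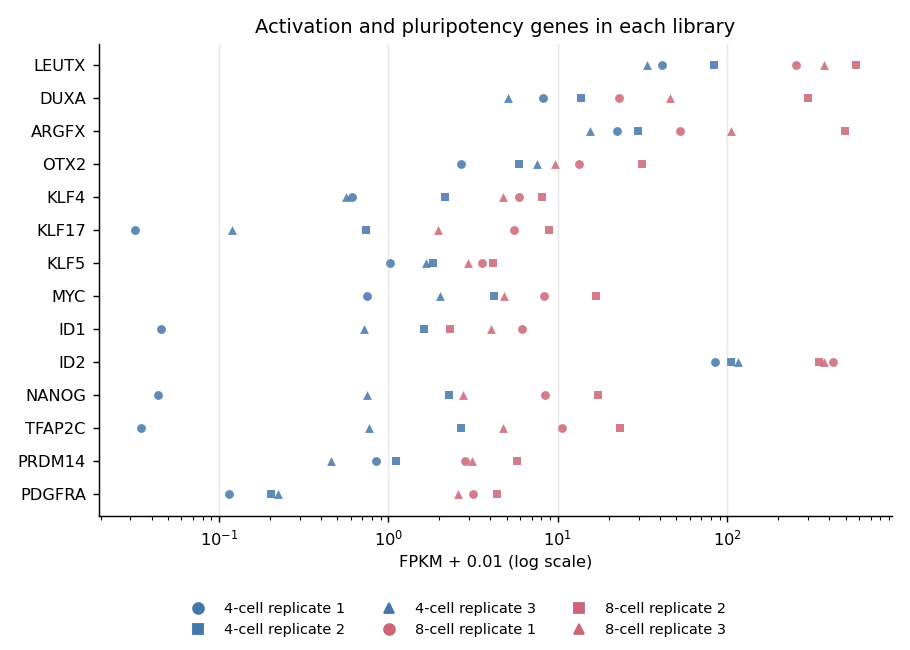
FPKM plus 0.01 (log axis) of 14 activation and pluripotency genes, 1 point per library, blue for 4-cell and red for 8-cell embryos, with the shape giving the replicate. ARGFX and DUXA reach 497 and 297 FPKM in 8-cell replicate 2 against 52.8 and 22.9 FPKM in 8-cell replicate 1, whereas ID2 lies between 346 and 419 FPKM in all 3.

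Many of the rises were of genes without a symbol. Names made of LOC and a number, which RefSeq gives to genes without a symbol, were 1270 of the 9570 tested genes (13.3%), but 83 of the 148 rises (56.1%) and 28 of the 195 falls (14.4%). By the 2-fold rule they were 190 of 491 rises (38.7%) and 76 of 408 falls. By the adjusted p they were 76 of 169 rises with the filter at 5 FPKM, 118 of 252 without 8-cell replicate 1 and 74 of 278 with the MII libraries in the fit, where 859 LOC names were tested. Of the 83 rises with such names 52 were protein coding, 20 pseudogenes and 10 long non-coding RNAs in RefSeq. Their median fold change on the log2(FPKM + 1) scale was 5.27-fold, against 3.26-fold for the 65 rises with a symbol. The median over all 1270 tested LOC names was 0.12, close to the 0.09 of all genes.

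Some rises with LOC names lay side by side. In the gene order of RefSeq for ARS1.2, a later release than the ARS1 assembly used by the authors, 35 of the 147 rises that could be placed had another rise within 3 places, in 9 runs. For falls this held for 10 of 195, in 5 runs of 2 genes. By the 2-fold rule it held for 106 of 485 placed rises and 45 of 408 falls. The share among all tested genes, or among all LOC names, was not computed. Of the 9 runs 6 had 3 or more rises, and all 29 rises in them had LOC names, which were singled out after their values were seen. The longest, between NAALAD2 and FOLH1B, spanned 13 names, of which 12 were tested and 11 rose by the adjusted p. The remaining tested gene of this run, LOC102177051, had a log2 fold change of 1.06 (adjusted p = 0.098). Values of this run summed to 536, 678 and 472 FPKM in the 4-cell libraries and 1872, 3822 and 2341 FPKM in the 8-cell libraries. Its most abundant member was LOC108634189, a protein-coding gene with 368, 457 and 338 FPKM in the 4-cell libraries and 1114, 2475 and 1503 FPKM in the 8-cell libraries (log2 fold change 2.06, SE 0.30, adjusted p = 0.02), and 0.0269 FPKM in MII oocytes. Every 8-cell library of this gene lay above every 4-cell library.

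Runs of 5 and of 3 rises lay between the same pair of genes with symbols, LRRC38 and C16H1orf158. Their sums went from 26.1, 84.4 and 33.1 to 287, 393 and 241 FPKM for the first and from 42.3, 95.5 and 24.1 to 322, 477 and 348 FPKM for the second, and in it LOC102172744 had the furthest change (log2 fold change 3.48, SE 0.36, adjusted p = 0.0077). A run of 4 rises between ZNF444 and ZNF667 went from 76.7, 56.5 and 76.2 to 464, 547 and 581 FPKM. It holds LOC102191368, with 20.5, 14.6 and 34.1 FPKM at the 4-cell stage and 170.1, 179 and 191 FPKM at the 8-cell stage (log2 fold change 2.99, SE 0.30, adjusted p = 0.0074). A run of 3 pseudogenes between RRM1 and TRIM21 went from 20.6, 28.2 and 28.9 to 294, 226 and 292 FPKM, a ratio of means of 10.5. Its LOC102187787 had 4.58, 15.2 and 14.8 FPKM at the 4-cell stage and 156, 106 and 203 FPKM at the 8-cell stage (log2 fold change 3.74, SE 0.45, adjusted p = 0.012). The last run, between ACP5 and INSR, held 3 rises among 4 tested genes, since the zinc finger gene ZNF557 inside it had a log2 fold change of -0.65 (adjusted p = 0.27). Its LOC102191603, a transcribed pseudogene, had 30.4, 56.8 and 47.5 FPKM at the 4-cell stage and 405, 958 and 376 FPKM at the 8-cell stage (log2 fold change 3.57, SE 0.40, adjusted p = 0.01). In all 6 runs each 8-cell sum exceeded each 4-cell sum, which the choice of runs by their rises fixed. The genes listed for MII oocytes had means of at most 0.798 FPKM there, and neighbours of this kind may be near-identical copies, between which uniquely mapped fragments are divided uncertainly.

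**Figure D3:**
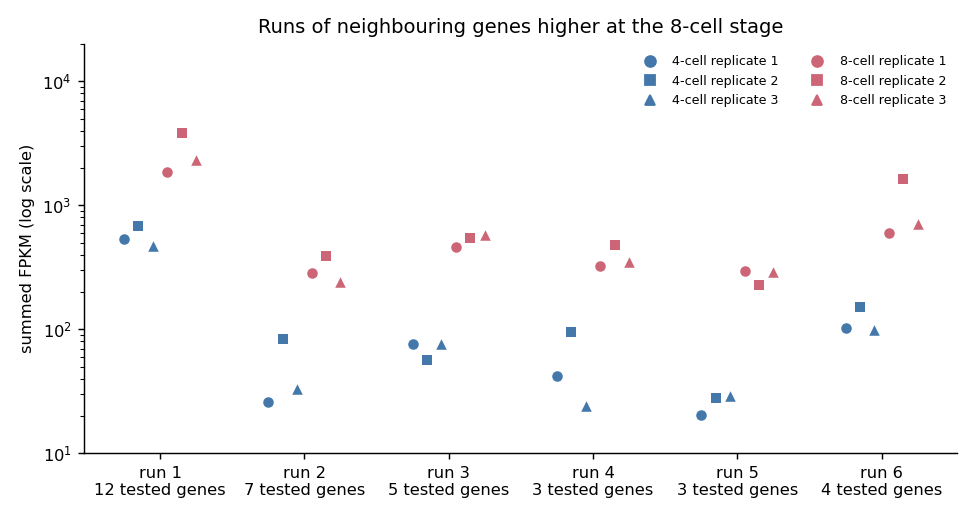
Summed FPKM (log axis) of the tested genes in each of 6 runs of neighbouring genes that hold 3 or more rises, with 1 point per library, blue for the 4-cell and red for the 8-cell stage. The red points lie above the blue ones since runs were chosen for their rises, from 1872 to 3822 against 472 to 678 FPKM in the longest.

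Few genes went from the floor to expression. Among the rises 5 genes had at most 3 fragments in every 4-cell library. The one with a symbol was PRCD, a small photoreceptor disc protein gene, with 0 FPKM in the 4-cell libraries and 5.80, 1.98 and 2.80 FPKM in the 8-cell libraries, at least 5.45-fold above 3 fragments per library. Its 8-cell values rest on 26, 9 and 14 fragments. The others were the protein-coding LOC102170446 (4.98 ± 2.24 FPKM at the 8-cell stage, SD, n = 3, at least 109-fold higher), LOC102188156 (3.80 ± 0.369 FPKM, at least 34.1-fold) and LOC108635065 (2.12 ± 0.500 FPKM, at least 35.2-fold), and the lncRNA LOC108638630 (7.24 ± 1.57 FPKM, at least 33.9-fold). The fall to the floor, that of the protein-coding LOC102187613, went from 25.1, 18.4 and 3.93 FPKM to 0, 0 and 0.0358 FPKM, at least 137-fold lower. The other rises had more than 3 fragments in at least 1 4-cell library.

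The called genes are described next by their level in MII oocytes. A fall can be called only with a 4-cell level above the filter and a rise can pass through its 8-cell level alone, so the choice of genes may itself set part of what follows. Of the 148 rises 109 were listed for MII oocytes, with a median of 0.939 FPKM there, and 56 of them (51.4%) had a mean below 1 FPKM, against 13.2% of all tested genes listed. The 193 listed falls had a median of 25.0 FPKM in MII oocytes and none was below 1 FPKM, while 16 of the 397 listed falls by the 2-fold rule were. A further 39 rises (26.4%) were not listed for MII oocytes, against 4.00% of all tested genes and 2 falls, and 36 of the 39 had LOC names. The medians of the listed rises were 6.46 FPKM at the 4-cell and 29.1 FPKM at the 8-cell stage, and those of the listed falls 42.4 and 12.8 FPKM, values that the call itself shapes. Rises were also from shorter genes, with a median exon length of 1446 bases against 2764 for all tested genes and 2254 for falls. The 65 rises with a symbol had a median length of 2254 and a median of 5.45 FPKM in MII oocytes, and the 83 with LOC names had medians of 1254 and 0.135.

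**Figure D4:**
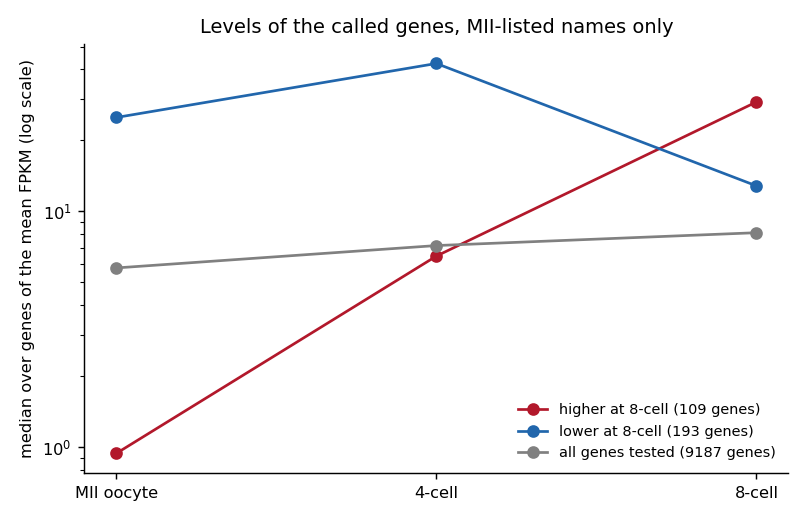
Median over genes of the mean FPKM (log axis) in MII oocytes, 4-cell and 8-cell embryos, for 109 rises, 193 falls and all 9187 tested genes that are listed for MII oocytes. The rises go from 0.939 to 6.46 and 29.1 FPKM and the falls from 25.0 to 42.4 and 12.8 FPKM, where the last step of each was fixed by the choice of genes.

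Of 41 tested oocyte and maternal effect genes none rose and 2 fell by the adjusted p, against 1.55% and 2.04% of all tested genes, with a median log2 fold change of 0.04. This median ranged from -0.22 without 8-cell replicate 1 to 0.29 without 4-cell replicate 2, and was -0.02 with median-ratio scaling and -0.05 with voom. NPM2, the oocyte nucleoplasmin that remodels sperm chromatin, had 133, 120.0 and 167 FPKM at the 4-cell stage and 35.0, 43.7 and 56.5 FPKM at the 8-cell stage (log2 fold change -1.63, SE 0.23, adjusted p = 0.02). UCHL1, a ubiquitin hydrolase abundant in oocytes, had 384, 454 and 551 FPKM at the 4-cell stage and 196, 216 and 207 FPKM at the 8-cell stage (log2 fold change -1.15, SE 0.19, adjusted p = 0.028). NPM3, a related nucleoplasmin, had 9.55, 36.7 and 3.62 FPKM at the 4-cell stage and 2.07, 2.19 and 1.47 FPKM at the 8-cell stage (log2 fold change -2.08, SE 0.68, adjusted p = 0.13). In all 3, every 8-cell library lay below every 4-cell library. None of 32 regulators of meiotic arrest and exit passed the adjusted test. PTTG1, the securin that holds separase inactive and among the most abundant transcripts of all, had 27729, 13117 and 17856 FPKM at the 4-cell stage and 4915, 8768 and 7669 FPKM at the 8-cell stage (log2 fold change -1.43, SE 0.33, adjusted p = 0.063). CCNB1, cyclin B1, had 533, 489.9 and 485 FPKM at the 4-cell stage and 359, 318 and 285 FPKM at the 8-cell stage (log2 fold change -0.65, SE 0.17, adjusted p = 0.073), and WEE1, the inhibitory kinase of CDK1, had 2.06, 2.63 and 3.54 FPKM at the 4-cell stage and 6.45, 12.0 and 7.42 FPKM at the 8-cell stage (log2 fold change 1.34, SE 0.31, adjusted p = 0.061). All 3 genes were apart between the stages, WEE1 upwards.

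None of the 10 genes with the highest mean passed the adjusted test. TMSB4X, an actin-sequestering thymosin, was the most abundant by FPKM, with 13829 to 34380 FPKM at the 4-cell and 8821 to 16663 FPKM at the 8-cell stage. PAIP1, a partner of poly(A)-binding protein, took more fragments than any other gene in each library, from 2.24 to 4.51%, and had a log2 fold change of 0.43 (adjusted p = 0.37). CKS1B, a subunit of cyclin-dependent kinases, had 6432, 5167 and 6703 FPKM at the 4-cell stage and 2282, 3495 and 3804 FPKM at the 8-cell stage (log2 fold change -0.96, SE 0.24, adjusted p = 0.072). BTG4, the adaptor that brings CCR4-NOT to maternal mRNA, had 8192, 7033 and 8843 FPKM at the 4-cell stage and 3400.0, 5070.2 and 6039.7 FPKM at the 8-cell stage (log2 fold change -0.76, SE 0.25, adjusted p = 0.13). The 8-cell libraries lay below the 4-cell ones for the latter 2 genes and overlapped for the first 2.

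Among genes of mRNA decay 1 passed the adjusted test. Of 22 deadenylase genes and adaptors none passed either rule, with a median of -0.03, which changed to 0.09 without 4-cell replicate 2 and to -0.09 without 8-cell replicate 1. CNOT1, the scaffold, had a log2 fold change of 0.49 (adjusted p = 0.28), the catalytic CNOT6L one of -0.63 (adjusted p = 0.17) and CNOT11 one of -0.63 (adjusted p = 0.19). Of 18 genes of decapping and decay from the 5' end, 3 LSM ring subunits were lower by the 2-fold rule, against 4.26% of all tested genes and 1 gene of the list without 8-cell replicate 1, with LSM7 the furthest at -1.83 (adjusted p = 0.087). DCP1A, a cofactor of decapping, had 0.40 (adjusted p = 0.41) and DCP2, the decapping enzyme, -0.13 (adjusted p = 0.81). Of 21 exosome genes 1 fell, against 2.04% of all tested genes. This was SKIV2L2, its helicase, with 27.7, 25.1 and 21.8 FPKM at the 4-cell stage and 9.76, 12.3 and 11.8 FPKM at the 8-cell stage (log2 fold change -1.08, SE 0.21, adjusted p = 0.04). EXOSC9, a subunit of the exosome core, had 89.6, 83.8 and 165 FPKM at the 4-cell stage and 29.4, 53.2 and 39.4 FPKM at the 8-cell stage (log2 fold change -1.42, SE 0.33, adjusted p = 0.061), while C1D, a cofactor of the nuclear exosome, had 10.3, 10.7 and 12.7 FPKM at the 4-cell stage and 17.7, 86.0 and 31.1 FPKM at the 8-cell stage (log2 fold change 1.61, SE 0.51, adjusted p = 0.12). The stages were apart for these 3 genes, and C1D was the 1 with higher 8-cell values.

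None of 22 tested m6A genes passed the adjusted test, by which 1.55% of all tested genes rose and 2.04% fell. The nearest of them turned on the setting. YTHDF2, the reader that recruits CCR4-NOT, had 5.43, 5.69 and 3.38 FPKM at the 4-cell stage and 10.8, 16.7 and 12.5 FPKM at the 8-cell stage (log2 fold change 1.30, SE 0.28, adjusted p = 0.051). Its adjusted p was 0.049 with a pseudocount of 0.1, 0.04 with the filter at 5 FPKM, 0.033 without 8-cell replicate 1 and 0.017 with the MII libraries in the fit, and up to 0.18 in the other alternatives. YTHDF1, a second cytoplasmic reader, had 17.3, 21.5 and 10.3 FPKM at the 4-cell stage and 7.84, 6.98 and 9.91 FPKM at the 8-cell stage (log2 fold change -0.87, SE 0.30, adjusted p = 0.16), and METTL14 had 38.2, 45.2 and 45.0 FPKM at the 4-cell stage and 25.5, 27.4 and 26.7 FPKM at the 8-cell stage (log2 fold change -0.67, SE 0.18, adjusted p = 0.083). The stages were apart for these 3 genes, with higher 8-cell values for YTHDF2 and lower ones for the others. HNRNPA2B1, an RNA-binding protein described as a nuclear m6A reader, was the other gene higher by the 2-fold rule, with 19.8, 32.4 and 43.7 FPKM at the 4-cell stage and 53.7, 149 and 43.3 FPKM at the 8-cell stage (log2 fold change 1.18, SE 0.49, adjusted p = 0.21), and 8-cell replicate 3 lay within the 4-cell range. By the 2-fold rule 2 of the 22 were higher, against 5.13% of all tested genes, and none lower, against 4.26%. The median of the list was 0.16, and 0.01 without 8-cell replicate 1. METTL3, FTO, ALKBH5, WTAP and YTHDF3 had log2 fold changes of 0.15, 0.34, 1.08, 0.20 and -0.30, with adjusted p of 0.85, 0.53, 0.35, 0.64 and 0.42. Of the 34 genes that the study names in its RNA-seq results 32 were tested and 3 passed, all lower, where 2.04% of all tested genes fell and 1.55% rose, while KDM5B and GDF6 were below the filter. Those 3 were NPM2, KDM1A, the histone demethylase LSD1, with 62.9, 88.6 and 50.6 FPKM at the 4-cell stage and 28.4, 21.7 and 31.8 FPKM at the 8-cell stage (log2 fold change -1.25, SE 0.26, adjusted p = 0.047), and UHRF2, a reader of methylated DNA, with 284, 405 and 281 FPKM at the 4-cell stage and 146, 141 and 141 FPKM at the 8-cell stage (log2 fold change -1.15, SE 0.19, adjusted p = 0.03). KDM1A and UHRF2 were the only calls among 52 chromatin enzymes, whose median was 0.16, with -0.03 without 8-cell replicate 1 and -0.01 after quantile normalization, and DNMT1, the maintenance DNA methyltransferase, had -0.65 (adjusted p = 0.11). The 8-cell values of KDM1A and UHRF2 lay below all their 4-cell values. Neither passed the adjusted test with no filter, no variance trend or the replicate block, or when any library but 8-cell replicate 1 was left out.

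Of 52 tested genes of RNA polymerase II and its general factors 1 rose, SUPT4H1, and 2 fell by the adjusted p, which 1.55% and 2.04% of all tested genes did, and 7 (13.5%) were lower by the 2-fold rule, against 4.26% of all tested genes, and 3 without 8-cell replicate 1. GTF2H3, a subunit of TFIIH, had 88.3, 84.4 and 101 FPKM at the 4-cell stage and 32.3, 31.4 and 25.0 FPKM at the 8-cell stage (log2 fold change -1.60, SE 0.19, adjusted p = 0.012), and the polymerase subunit POLR2G had 55.4, 39.8 and 64.5 FPKM at the 4-cell stage and 17.9, 25.0 and 23.0 FPKM at the 8-cell stage (log2 fold change -1.23, SE 0.24, adjusted p = 0.042). GTF2F1, a subunit of TFIIF, had 5.81, 13.0 and 7.86 FPKM at the 4-cell stage and 95.6, 16.0 and 18.7 FPKM at the 8-cell stage (log2 fold change 1.75, SE 0.65, adjusted p = 0.17), which was 0.95 without 8-cell replicate 1. Of 64 splicing factors 5 fell and none rose, against 2.04% and 1.55% of all tested genes, with a median of -0.22, which was -0.37 with voom. None of the 5 falls passed with median-ratio scaling, voom, no filter or the replicate block, and 6 genes were lower by the 2-fold rule, against 4.26% of all tested genes. MAGOH, a core protein of the exon junction complex, had 3602, 1750.5 and 2352 FPKM at the 4-cell stage and 490.5, 879 and 761 FPKM at the 8-cell stage (log2 fold change -1.83, SE 0.32, adjusted p = 0.033), and SNRPE, an Sm protein, had a log2 fold change of -1.30 (adjusted p = 0.035). SRSF3, a serine- and arginine-rich splicing factor, had 37.0, 62.7 and 47.7 FPKM at the 4-cell stage and 95.1, 253 and 89.7 FPKM at the 8-cell stage (log2 fold change 1.41, SE 0.41, adjusted p = 0.1), the 1 splicing factor higher by the 2-fold rule. Of 50 nucleoporins and transport factors 3 fell, against 2.04% of all tested genes, among them CSE1L, the exporter of importin alpha (-1.28), and NUP37 (-1.23), while KPNA2, an importin alpha, had 199, 314 and 293 FPKM at the 4-cell stage and 513, 487 and 484 FPKM at the 8-cell stage (log2 fold change 0.91, SE 0.21, adjusted p = 0.062). No fall of this list passed with no filter, no variance trend or the replicate block, or without any one of 5 libraries, all but 8-cell replicate 1. NXF1, the export receptor of mRNA, had 12.9, 17.6 and 7.65 FPKM at the 4-cell stage and 59.1, 31.9 and 34.1 FPKM at the 8-cell stage (log2 fold change 1.65, SE 0.36, adjusted p = 0.052). Every 8-cell value of KPNA2 and NXF1 lay above every 4-cell value. No RNA polymerase I or III gene of 27 passed either rule.

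Mitochondrial genes encoded in the nucleus had negative medians. Of 53 oxidative phosphorylation genes 41 were below 0 with a median log2 fold change of -0.46, which was -0.47 without 8-cell replicate 1 and between -0.64 and -0.46 with other scalings and filters. By the adjusted p 3 fell and 1 rose, against 2.04% and 1.55% of all tested genes, and by the 2-fold rule 7 were lower (13.2%, against 4.26% of all tested genes), a count of 4 when 8-cell replicate 1 was left out and of 14 when replicate 2 was. Only genes of complexes I, II and V were among them, and those of complexes III and IV were not analysed here. NDUFS4 of complex I had 10.2, 9.89 and 14.1 FPKM at the 4-cell stage and 2.39, 2.95 and 3.26 FPKM at the 8-cell stage (log2 fold change -1.67, SE 0.25, adjusted p = 0.022), NDUFC2 of the same complex had a log2 fold change of -1.37 (adjusted p = 0.045), and NDUFA2 rose with 3.27, 2.50 and 2.58 FPKM at the 4-cell stage and 7.49, 13.8 and 8.03 FPKM at the 8-cell stage (log2 fold change 1.47, SE 0.29, adjusted p = 0.042). Each of these 3 was apart between stages. No gene of this list passed the adjusted test with voom, no filter or the replicate block. None rose by it with median-ratio scaling, quantile normalization or no variance trend. Of 65 mitochondrial ribosomal proteins 4 fell and none rose, against 2.04% and 1.55% of all tested genes, with a median of -0.23, which was -0.37 with voom. By the 2-fold rule 9 were lower (13.8%), against 4.26% of all. MRPL50 had 36.2, 36.3 and 49.9 FPKM at the 4-cell stage and 9.66, 16.1 and 11.3 FPKM at the 8-cell stage (log2 fold change -1.66, SE 0.25, adjusted p = 0.023), and MRPL43 had a log2 fold change of -1.50 (adjusted p = 0.018). The median exon length of these lists was 848 and 1131 bases, against 2764 for all tested genes, and the part of length in these medians was not tested.

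Of 76 cytosolic ribosomal proteins with names in RPL or RPS, which leave out FAU, 1 rose and 2 fell by the adjusted p, and 5 were higher and 4 lower by the 2-fold rule, with a median of -0.13. These numbers lie near the 1.55%, 2.04%, 5.13% and 4.26% over all tested genes. Single libraries and the scaling moved this median, to -0.45 without 8-cell replicate 2 (1 higher and 15 lower by the 2-fold rule), 0.05 without 8-cell replicate 3, -0.05 without 8-cell replicate 1 and -0.34 with voom (1 higher and 6 lower). RPLP0, of the ribosomal stalk, had 152, 215 and 176 FPKM at the 4-cell stage and 353, 399 and 433 FPKM at the 8-cell stage (log2 fold change 1.13, SE 0.19, adjusted p = 0.031). RPL27 had 31.3, 15.3 and 28.8 FPKM at the 4-cell stage and 3.97, 9.10 and 4.56 FPKM at the 8-cell stage (log2 fold change -1.94, SE 0.38, adjusted p = 0.04), and RPS4X had 144, 117 and 166 FPKM at the 4-cell stage and 40.4, 75.0 and 46.7 FPKM at the 8-cell stage (log2 fold change -1.42, SE 0.27, adjusted p = 0.039). No gene of this list passed the adjusted test with median-ratio scaling, voom, no variance trend, no filter or the replicate block. Ribosomal protein genes have many processed pseudogenes, so their fragments are assigned with some uncertainty. Of 84 genes of ribosome biogenesis 3 fell, against 2.04% of all tested genes, and none rose. They were UTP18, of the small subunit processome, with 174, 150.3 and 144 FPKM at the 4-cell stage and 62.0, 61.0 and 61.3 FPKM at the 8-cell stage (log2 fold change -1.32, SE 0.17, adjusted p = 0.016), NMD3, the export adaptor of the large subunit (-1.20), and RRP15 (-1.34). None of 40 translation initiation factors passed either rule, and their median was 0.01, which was -0.13 without 8-cell replicate 1 and -0.08 with median-ratio scaling.

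Of the genes of protein turnover, PSMA5, a ring subunit of the proteasome, fell, with 1053, 984 and 1484 FPKM at the 4-cell stage and 329, 371 and 358 FPKM at the 8-cell stage (log2 fold change -1.71, SE 0.20, adjusted p = 0.012), the 1 call among 47 proteasome genes (2.04% of all tested genes fell), whose median was -0.18, with -0.28 without 8-cell replicate 1, -0.37 after quantile normalization and -0.46 with voom. Of 24 antioxidant enzymes 3 fell, where 2.04% of all tested genes did, none rose and 5 (20.8%) were lower by the 2-fold rule, against 4.26% of all tested genes. None of the 3 falls passed with median-ratio scaling, voom, no variance trend, no filter or the replicate block. PRDX1, a cytosolic peroxiredoxin, had 816, 752 and 1109 FPKM at the 4-cell stage and 290.1, 446 and 377 FPKM at the 8-cell stage (log2 fold change -1.27, SE 0.23, adjusted p = 0.036), PRDX3 of mitochondria had a log2 fold change of -0.98 (adjusted p = 0.045), and GSTM3, a glutathione transferase, one of -1.23 (adjusted p = 0.041). PRDX6 was apart in the other direction, with 1018, 1378 and 1277 FPKM at the 4-cell stage and 1959.6, 2215 and 2312 FPKM at the 8-cell stage (log2 fold change 0.83, SE 0.18, adjusted p = 0.056). Of 34 heat shock proteins and chaperonins 1 fell, against 2.04% of all tested genes, HSPA4 (-1.81, adjusted p = 0.034), and HSPA5, the chaperone of the endoplasmic reticulum, had 1.60 (adjusted p = 0.072). DNAJB9, a cochaperone of the same compartment, had 5.31, 13.8 and 7.19 FPKM at the 4-cell stage and 22.5, 76.3 and 21.3 FPKM at the 8-cell stage (log2 fold change 1.91, SE 0.53, adjusted p = 0.092), with all 8-cell values above the 4-cell ones.

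Of 51 lysosome and autophagy genes 38 were above 0, with a median of 0.35 that was 0.08 without 8-cell replicate 1. By the adjusted p 1 rose and 1 fell, against 1.55% and 2.04% of all tested genes. CTSL, a lysosomal cysteine protease, had 0.0749, 1.58 and 1.22 FPKM at the 4-cell stage and 7.95, 14.3 and 14.3 FPKM at the 8-cell stage (log2 fold change 2.80, SE 0.41, adjusted p = 0.02), and reached the filter only through its 8-cell values. CD63, a tetraspanin of late endosomes, fell (-1.36, adjusted p = 0.034). Of 19 apoptosis regulators 1 rose and 1 fell, which 1.55% and 2.04% of all tested genes did. PMAIP1 rose and CASP6, an executioner caspase, fell, with 159.9, 144 and 172 FPKM at the 4-cell stage and 64.1, 76.2 and 78.0 FPKM at the 8-cell stage (log2 fold change -1.12, SE 0.17, adjusted p = 0.024). BECN1, the autophagy protein Beclin 1, had 3.33, 6.45 and 5.30 FPKM at the 4-cell stage and 26.0, 11.7 and 15.2 FPKM at the 8-cell stage (log2 fold change 1.59, SE 0.35, adjusted p = 0.054). For CTSL, CASP6 and BECN1 the stages were apart.

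In DNA replication, 2 of 52 genes fell and none rose, against 2.04% and 1.55% of all tested genes. These were RPA3 and RFC3, a subunit of the clamp loader, with 33.9, 40.4 and 43.3 FPKM at the 4-cell stage and 13.5, 12.3 and 14.9 FPKM at the 8-cell stage (log2 fold change -1.46, SE 0.20, adjusted p = 0.017), and RRM2 was the 1 rise among 26 genes of nucleotide, serine and one-carbon synthesis. None of 17 glycolysis genes, 33 regulators of the 3' UTR and mRNA storage or 38 genes of actin, keratins and junctions passed the adjusted test, and their medians were 0.42, 0.43 and 0.10. Without 8-cell replicate 1 these medians were 0.13, 0.15 and 0.05. ALDOA, an aldolase of glycolysis, had 22.0, 36.6 and 23.4 FPKM at the 4-cell stage and 153, 41.5 and 40.0 FPKM at the 8-cell stage (log2 fold change 1.22, SE 0.51, adjusted p = 0.22), and 0.60 without this library. CTNNB1, beta-catenin of adherens junctions and Wnt signalling, had 61.1, 90.7 and 49.8 FPKM at the 4-cell stage and 44.4, 21.2 and 24.7 FPKM at the 8-cell stage (log2 fold change -1.16, SE 0.34, adjusted p = 0.099), with no overlap between stages. Of 129 zinc finger genes named ZNF 1 rose, ZNF596, and 4 fell, where all tested genes had 1.55% and 2.04%, of which ZNF32 (-1.61) went furthest. The median of these genes was 0.04, and between -0.08 and -0.03 with the other scalings. Of 134 solute carriers SLC9B2, a sodium/proton exchanger, rose with 6.44, 7.63 and 7.62 FPKM at the 4-cell stage and 20.1, 16.0 and 18.3 FPKM at the 8-cell stage (log2 fold change 1.21, SE 0.21, adjusted p = 0.032), and the zinc transporter SLC39A12 with a log2 fold change of 1.34 (adjusted p = 0.048), while none fell, a number of rises close to the 1.55% of all tested genes. Both carriers had all 8-cell values above all 4-cell values.

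**Figure D5:**
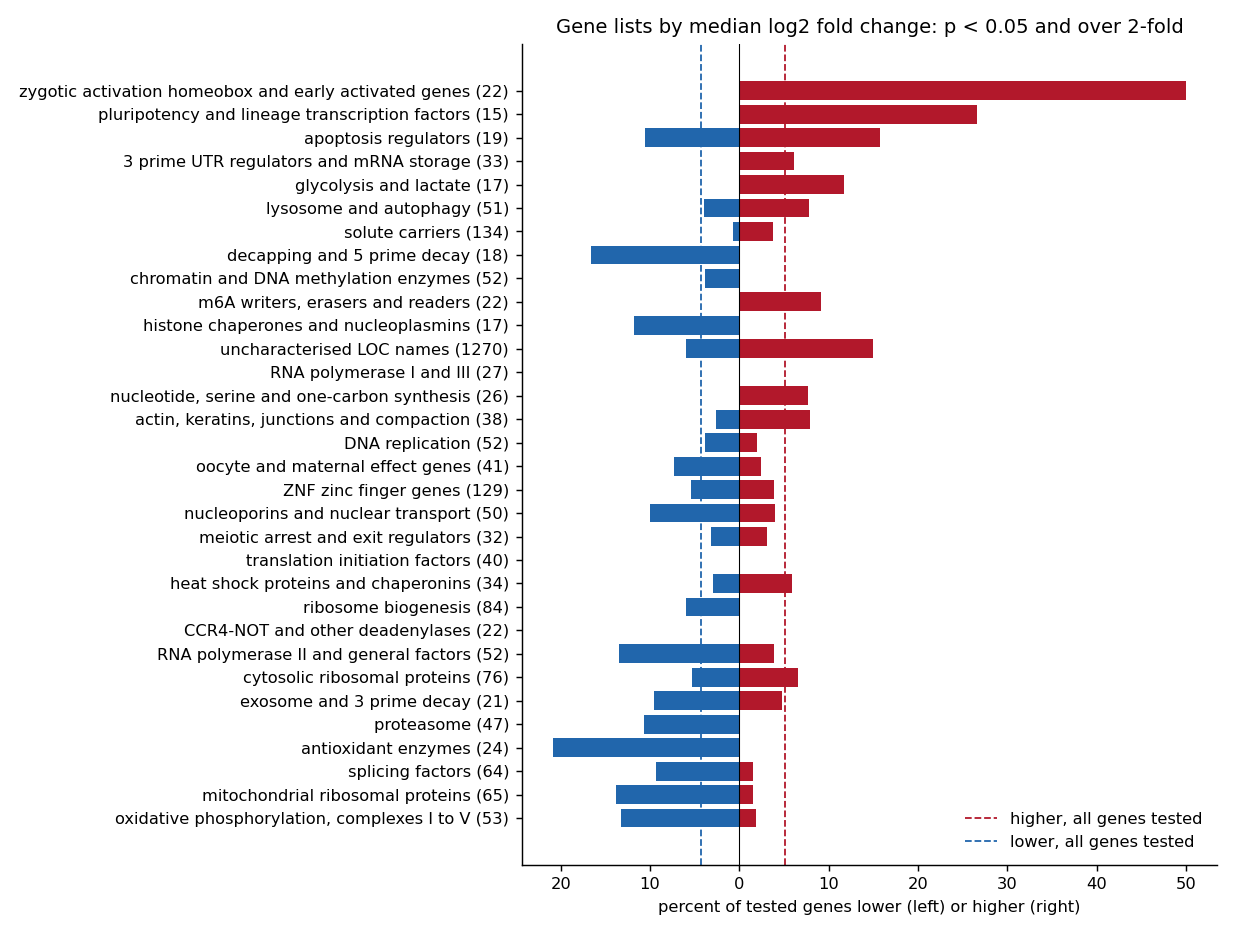
Share of tested genes in each list that were higher (red, right) or lower (blue, left) at the 8-cell stage by an unadjusted p under 0.05 and more than a 2-fold change, with the number tested in parentheses and lists ordered by median log2 fold change; dashed lines give the shares over all tested genes, 5.13% and 4.26%. The activation list, with 11 of 22 genes higher, reaches furthest to the right, and the oxidative phosphorylation list at the bottom has 13.2% lower and 1.89% higher.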

How the data were processed

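RNA-seq was analysed for 6 untreated goat embryo libraries, 3 per stage, with the groups taken from the labels. Per the labels and the methods of the study, the authors aligned the reads to ARS1 by HISAT2, dropped reads without a unique location, counted by HTSeq and deposited FPKM values per gene. DESeq2 was used by the authors for their own calls, which were not used here. Both embryo tables have 22107 rows, of which 43 names that recur were dropped. The members and the gene lists were chosen with earlier results of these data known. Log2(FPKM + 1) was tested in limma 3.58.1 (R 4.3.3) with a mean-variance trend, two-sided, and adjusted over 9570 genes averaging 1 FPKM or more. Fold changes are on this scale, which understates low genes. FPKM steps gave whole fragments for all 20331 names above 0, from which totals and floors were taken, covering counting error only. The fit was also run on simulated data with the same spread in every library, which does not test it for a library that stands apart. Of the tested genes the text names the 15 furthest rises and falls with a symbol, an average of 10 FPKM or more and no overlap of stages, the members of gene lists in order of change with some that define a list, the genes the study names, the 10 most abundant and those at the floor in 1 stage, apart from results that are not reported here, and names with LOC outside this rule were chosen after their values were seen. Same-numbered libraries of the stages deviated from their stage means with correlations of -0.24, -0.49 and 0.15. With 3 libraries per stage these cannot settle whether the numbers pair the samples, and the main fit did not pair them. RefSeq names and gene order came from assembly ARS1.2, which held 99.8% of the names, and no coordinates were used. Other settings tried were the pseudocount, the filter, the scaling, the variance trend, voom, a replicate block, the MII libraries in the fit and each library left out.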

Additional observations from a re-analysis of the deposited data

How the results depend on the processing

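Calls by the adjusted p depended on the settings. The 148 rises and 195 falls that could be tested kept their sign under the other filters, scalings and fits, and since their stages do not overlap, leaving out a library could not turn it. Higher and lower genes by the adjusted p numbered 13 and 19 without a filter on low values, where 20331 names were tested, 77 and 86 with voom on recovered fragments, and 278 and 476 with the MII libraries in the fit. Lower genes numbered 107 with median-ratio scaling and 95 without the variance trend. By the 2-fold rule 285 genes were higher under a filter at 5 FPKM and 659 lower with voom. The cause was not tested. Leaving out each library in turn gave 0 to 252 higher and 1 to 256 lower genes by the adjusted p, and 352 to 754 higher and 383 to 530 lower genes by the 2-fold rule. The replicate block, with the number in the labels as a term, gave 22 higher and 4 lower genes by the adjusted p, of which 84.6% were higher, and 451 and 403 by the 2-fold rule. Whether the numbers pair the samples is not settled, so the block was not read as a paired analysis. Not every library correlated best with its own number, 4-cell replicate 2 doing so with 8-cell replicate 1 (0.50).

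Among the genes named with values, METTL3 changed sign, to -0.033 after quantile normalization and to -0.19 without 4-cell replicate 1, with a range of -0.19 to 0.41 over the libraries left out, and it was also below 0 without 8-cell replicate 3. DCP2 ranged from -0.35 to 0.013, above 0 without 8-cell replicate 3. Neither passed the test in any of these fits. Depth limits genes of low level, since 3 fragments in a 1 kb gene are about 0.1 FPKM.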

Other observations

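Of the 544 genes more than 4-fold higher in 8-cell replicate 1 than in both other 8-cell libraries, the examples here were chosen after their values were seen. RGS16, a regulator of G protein signalling, had 109, 230 and 156 FPKM at the 4-cell stage and 1197, 81.2 and 120 FPKM at the 8-cell stage. TACC3, a spindle protein, had 40.9, 29.6 and 31.4 FPKM at the 4-cell stage and 634, 33.9 and 23.4 FPKM at the 8-cell stage. In both genes 8-cell replicates 2 and 3 lay within or below the 4-cell range. CTSB, a lysosomal cysteine protease, had 24.6, 38.8 and 15.8 FPKM at the 4-cell stage and 408, 26.4 and 28.5 FPKM at the 8-cell stage. EIF4E1B, an oocyte form of the cap-binding protein, had 303 FPKM in 8-cell replicate 1 and 38.0 to 97.6 FPKM in the other libraries. These genes were measured at a mean of 363 FPKM for RGS16, 143 for TACC3, 21.1 for CTSB and 104 for EIF4E1B in MII oocytes. The exon length of the 544 genes had a median of 2648 bases, near the 2764 of all tested genes.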
